A study of Mus musculus with 24 samples.

Results

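The maxilla of mouse embryos that lack the TGF-beta type I receptor Alk5 (gene symbol Tgfbr1) in neural crest derivatives was compared with the maxilla of control littermates at embryonic day 12.5. Arrays were taken by their titles: 8 Alk5 knockout maxilla arrays (replicates 1 to 4, each with a proximal and a distal end) and 4 control maxilla arrays (replicates 1 and 2, both ends), 12 of the 24 arrays of the series. The other 12 arrays hold the mandible in the same layout. Embryos of strain C57B6 came from Wnt1cre;Alk5fl/+ mice crossed to Alk5fl/fl mice. Mutants were picked by a cleft palate and a calvarial defect, so the controls are littermates whose own Cre and Alk5 alleles the labels do not spell out. Wnt1-Cre recombines in premigratory neural crest, so facial mesenchyme, peripheral glia and some neurons lose the receptor, while surface epithelium, endothelium, blood and muscle precursors of the same dissected piece keep it. Each array measured total RNA of 1 dissected end by hybridisation to an Affymetrix Mouse430_2 array. The labels do not say whether an array held 1 embryo or a pool, nor whether the ends of 1 number came from the same embryo, so p-values measure the spread between these arrays only.

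TGF-beta ligands are secreted in a latent form, held in the matrix by latent TGF-beta binding proteins, and once freed they bring together the type II receptor Tgfbr2 and the type I receptor Alk5. Alk5 then phosphorylates Smad2 and Smad3, which join Smad4, enter the nucleus and raise or lower the transcription of matrix, adhesion and cell cycle genes, often through the short DNA element CAGAC. In the face, cranial neural crest cells that receive this signal form the mesenchyme of the palatal shelves, the cartilages and membrane bones of the jaws and the tendons, and loss of Alk5 in neural crest is known for clefts and skull defects.

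The knockout arrays fell into separate array sets by number: replicates 1 and 2, called knockouts 1-2, and replicates 3 and 4, called knockouts 3-4. Hybridisation control features, which are spiked in at fixed amounts, averaged 11.93 ± 0.35 in knockouts 1-2, 9.51 ± 0.18 in knockouts 3-4 and 10.79 ± 0.40 in controls on the log2 scale (SD, n = 4 arrays each). For the control probe sets of Gapdh and beta-actin, the log2 signal at the 3' end minus that at the 5' end, a measure that grows as RNA degrades, was 1.03 ± 0.36 in knockouts 1-2 (0.71 to 1.50), 0.05 ± 0.07 in knockouts 3-4 and 0.15 ± 0.03 in controls. The median correlation with control arrays across all genes was 0.939 for knockouts 1-2 and 0.967 for knockouts 3-4. Knockouts 1-2 and 3-4 are therefore given side by side. They share the 4 control arrays, and within each set genotype and array set cannot be told apart. By Xist and the Y-linked Kdm5d, each knockout set held 2 male and 2 female arrays and the controls 4 male arrays. In the maxilla of knockout 1 the proximal array was female and the distal male, and in that of knockout 2 the reverse, while the mandible ends were both male for knockout 1 and both female for knockout 2. The 3' excess was 0.78 and 0.71 on the female maxilla arrays of knockouts 1-2, against 1.50 and 1.13 on the male ones. Whether labels of these ends were exchanged was not tested, so the ends of number 1 or 2 of the knockouts need not be 1 unit.

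The tissue label was checked against defining markers. Hand2, which marks the mandibular arch, averaged 7.56 ± 1.14 in knockout (n = 8) and 7.93 ± 0.90 in control maxilla (SD, n = 4), against 11.89 ± 1.01 in knockout and 12.01 ± 1.06 in control mandible. Other mandibular markers were Dlx5, Dlx6, Gsc and Hand1. They averaged 10.1, 9.06, 9.2 and 6.75 in control maxilla, against 11.04, 10.58, 10.27 and 7.28 in control mandible. Pou3f3, Alx4 and Lhx8, chosen as maxillary markers, did not set the control jaws apart. Their means were 10.69, 6.85 and 10.01 in control maxilla, against 11.28, 6.67 and 10.0 in control mandible, so the check rests on the mandibular markers. The facial mesenchyme gene Prrx1 was high in both genotypes of the maxilla, with 12.66 ± 0.54 in knockouts and 12.82 ± 0.37 in controls. Tgfbr1 has 3 probe sets, and the place of their probes relative to the deleted part of the gene is not given in the sources used here, so none checks the genotype labels. The brightest averaged 12.44 ± 0.13 in knockouts 1-2, 12.43 ± 0.08 in knockouts 3-4 and 12.26 ± 0.33 in controls. The second lay at 5.65 to 6.62 in knockouts 1-2 and 6.76 to 7.07 in knockouts 3-4, below all 4 controls at 7.21 to 8.31. For the third, knockouts 1-2 averaged 5.31 ± 0.68 and knockouts 3-4 averaged 7.74 ± 0.27, against 7.08 ± 0.35 in controls, so the knockout sets lay on opposite sides of control.

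With all 8 knockout arrays set against the 4 controls and end as a covariate, limma called 0 of 13837 genes at an adjusted p under 0.05, where 1485 had an unadjusted p under 0.05. The smallest adjusted p was 0.0603. The 8 knockout and 4 control arrays did not overlap for 371 genes, 2.68% of those tested, of which 237 (1.71%) were lower and 134 (0.968%) higher in knockouts. Pdk2, a kinase that inhibits pyruvate dehydrogenase, reached that smallest adjusted p and was picked after its values were seen. It had 7.36, 7.17, 7.11 and 7.69 in knockouts 1-2 and 7.23, 7.58, 7.66 and 7.67 in knockouts 3-4, against 8.39, 8.54, 8.29 and 8.41 in controls, each set listed as proximal and distal of its first number and then of its second. All 8 knockout arrays lay below all 4 controls, and the difference over all knockouts was -0.97 ± 0.13 (SE) on the log2 scale. RNA quality as a covariate brought 136 genes past the threshold in this comparison (30 higher, 106 lower).

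In knockouts 3-4 against control, 40 genes were higher and 206 lower, 1.78% of the genes tested (0.289% higher, 1.49% lower). Knockouts 1-2 against control gave 2284 higher and 3361 lower genes, 40.8% of those tested (16.5% higher, 24.3% lower), and this was the set with the large 3' excess. With the 3' excess as a covariate 12 genes passed in knockouts 1-2 (4 higher, 8 lower) and 413 in knockouts 3-4 (80 higher, 333 lower). The covariate itself sets the array sets apart, with 0.71 or more on every array of knockouts 1-2 and 0.19 or less on every other maxilla array. When each array was first centred on its own median, the median of all genes in knockouts 1-2 was -0.13 in place of -0.06, and the split there was 1646 higher and 3944 lower. The count for knockouts 3-4 fell to 46 without knockout 3, 53 without knockout 4, 63 without control 1 and 149 without control 2, and stood at 413 without knockout 1, whose arrays enter the shared estimate of the spread. Averaging both ends of a number first left 11 genes there, in a fit whose spread includes the maxilla ends of knockouts 1 and 2 that differ in sex. Of the 36 genes named here as changed in knockouts 3-4, 9 were among those (Atn1, Caln1, Itga5, Lrp5, Maz, Nynrin, Plekhj1, Raver1 and Scaf1), and the other 27 kept their sign without passing. Arrays did not overlap with control for 39.3% of all genes in knockouts 1-2 and for 14.8% in knockouts 3-4. The median difference of all genes was -0.06 in knockouts 1-2 and -0.02 in knockouts 3-4.

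Itga5, the integrin subunit that pairs with beta 1 as the main fibronectin receptor, gave the smallest adjusted p of knockouts 3-4. Its levels were 8.77, 8.77, 8.70 and 8.61 in knockouts 1-2 and 7.31, 7.45, 7.47 and 7.40 in knockouts 3-4, against 9.03, 9.03, 9.0 and 9.22 in controls. The 3 sets did not overlap, with knockouts 3-4 lowest. Itga5 fell by 1.66 ± 0.08 (SE, adjusted p = 8.00e-06) in knockouts 3-4, to 31.6% of the control level, and by 0.36 ± 0.08 (adjusted p = 0.00508) in knockouts 1-2. The second probe set of Itga5 differed by -0.87 in knockouts 3-4 and -0.84 in knockouts 1-2, and the other 2, at 5.30 and 4.53 in controls, by 0.04 and 0.04 in knockouts 3-4 and by 1.46 and 0.83 in knockouts 1-2. With the mean of its probe sets Itga5 was higher than control in knockouts 1-2, by 0.27 (adjusted p = 0.0103), so the direction there depends on the probe sets used.

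Col15a1, a basement membrane collagen whose end fragment is known as restin, was at 7.36, 7.81, 7.46 and 7.16 in knockouts 1-2 and 6.83, 6.50, 7.0 and 6.89 in knockouts 3-4, against 8.41, 8.67, 8.20 and 8.74 in controls. Every knockout array lay below every control. The fall was 1.05 ± 0.17 (adjusted p = 0.00123) in knockouts 1-2 and 1.70 ± 0.17 (adjusted p = 8.79e-04) in knockouts 3-4. Col15a1 and Alg2, a mannosyltransferase of protein glycosylation, are the genes next to Tgfbr1 on either side in the RefSeq gene order of chromosome 4 (GRCm38.p6). Alg2 had 10.99, 10.81, 10.79 and 11.02 in knockouts 1-2 and 10.55, 10.67, 10.77 and 10.72 in knockouts 3-4, against 11.44, 11.28, 11.26 and 11.24 in controls, again without overlap. It fell by 0.40 ± 0.09 (adjusted p = 0.00487) in knockouts 1-2 and by 0.62 ± 0.09 (adjusted p = 0.00562) in knockouts 3-4. The next genes outward, chosen like Alg2 after the values were seen, were Galnt12, a mucin-type glycosyltransferase, with -0.15 in knockouts 1-2 and 0.02 in knockouts 3-4, and Sec61b, a subunit of the protein channel of the endoplasmic reticulum, which fell by 0.37 in knockouts 1-2 and had 0.00 in knockouts 3-4. A role of the targeted locus itself in the values of its neighbours was not tested.

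Promoter windows are printed for 4 of the genes that fell in both sets, because the CAGAC element through which Smad3 and Smad4 bind DNA can be looked for in them. Each holds the 250 bases before the annotated start (RefSeq, GRCm38.p6), read 5' to 3' on the strand of the gene. Capitals mark CAGAC or its complement GTCTG, searched on both strands as these letters only. The windows are those of Itga5 (chr15:103366792-103367041, minus strand), Col15a1 (chr4:47207762-47208011, plus strand), Sparc (chr11:55420081-55420330, minus strand) and Rhob (chr12:8500010-8500259, minus strand).
Itga5: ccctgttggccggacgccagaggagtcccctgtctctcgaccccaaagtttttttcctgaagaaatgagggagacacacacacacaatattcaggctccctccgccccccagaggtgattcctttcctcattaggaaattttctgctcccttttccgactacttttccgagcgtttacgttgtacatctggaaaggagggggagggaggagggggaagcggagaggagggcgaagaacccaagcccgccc
Col15a1: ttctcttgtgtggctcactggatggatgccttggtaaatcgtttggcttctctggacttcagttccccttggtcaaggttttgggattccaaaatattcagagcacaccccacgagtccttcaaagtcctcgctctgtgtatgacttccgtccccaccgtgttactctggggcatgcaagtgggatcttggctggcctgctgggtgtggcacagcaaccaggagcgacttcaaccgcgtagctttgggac
Sparc: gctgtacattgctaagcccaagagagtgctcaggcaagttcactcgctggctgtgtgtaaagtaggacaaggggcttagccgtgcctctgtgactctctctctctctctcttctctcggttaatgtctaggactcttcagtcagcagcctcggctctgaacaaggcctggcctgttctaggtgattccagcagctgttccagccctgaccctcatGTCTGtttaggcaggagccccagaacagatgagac
Rhob: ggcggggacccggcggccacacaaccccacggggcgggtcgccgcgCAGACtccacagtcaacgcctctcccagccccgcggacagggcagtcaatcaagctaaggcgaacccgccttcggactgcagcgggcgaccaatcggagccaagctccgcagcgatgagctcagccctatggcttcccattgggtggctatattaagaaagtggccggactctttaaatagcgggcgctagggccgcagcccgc
The windows of Sparc and Rhob hold 1 match each and those of Itga5 and Col15a1 hold 0. Of 32851 such windows in the table, 42.2% hold at least 1 match, so a match here is a description only.

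The extracellular matrix genes were lower as a group in knockouts 1-2. Of 45 tested, 28 fell and 4 rose in knockouts 1-2, with a median of -0.59. In knockouts 3-4, 3 fell (Col15a1, Eln and Sparc) and 0 rose, with 35 of 45 below control at any size and a median of -0.14. The calls were 71.1% of the list in knockouts 1-2 and 6.67% in knockouts 3-4, beside 40.8% and 1.78% of all genes. Over all genes tested, 55.8% were below control at any size in knockouts 1-2 and 54.1% in knockouts 3-4. Eln encodes tropoelastin, the core of elastic fibres. It had 7.26, 6.79, 7.17 and 7.44 in knockouts 1-2 and 8.78, 8.75, 9.15 and 8.83 in knockouts 3-4, against 9.82, 9.61, 9.56 and 9.69 in controls. The sets were separate and ordered knockouts 1-2, knockouts 3-4, control. Eln fell by 2.50 ± 0.14 (adjusted p = 1.85e-05) in knockouts 1-2, to 17.6% of control, and by 0.79 ± 0.14 (adjusted p = 0.0182) in knockouts 3-4, to 57.9%. Sparc encodes osteonectin, a collagen-binding matrix glycoprotein. Its levels were 12.25, 12.46, 12.34 and 12.55 in knockouts 1-2 and 12.40, 12.45, 12.70 and 12.46 in knockouts 3-4, against 13.11, 12.98, 12.88 and 12.99 in controls. All knockout arrays were below all controls, with a fall of 0.59 ± 0.10 (adjusted p = 0.00135) in knockouts 1-2 and of 0.49 ± 0.10 (adjusted p = 0.0305) in knockouts 3-4. Another bright Sparc probe set, at 13.09 in controls, differed by -1.43 in knockouts 1-2 and by -0.40 in knockouts 3-4, where it overlapped control.

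Further matrix genes passed in knockouts 1-2 and not in knockouts 3-4. Lox, the enzyme that cross-links collagen and elastin, fell by 2.55 in knockouts 1-2 and had -0.38 in knockouts 3-4, which did not pass. Fbln5, an elastic fibre assembly protein, fell by 1.88 in knockouts 1-2 and had -0.35 in knockouts 3-4. Col8a1, a short-chain collagen, fell by 2.93 in knockouts 1-2 with 0.07 in knockouts 3-4. Hspg2, Lama1, Col18a1 and Col4a1, all basement membrane genes, were the 4 that rose in knockouts 1-2, by 0.28 to 0.73, although Col4a1, the least of them, turned to -0.13 with the mean of its probe sets.

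Among 30 integrin and focal adhesion genes, 8 fell and 4 rose in knockouts 1-2, and 4 fell (Itga5, Zyx, Ilk and Rhob) and 0 rose in knockouts 3-4. The falls of knockouts 1-2 are 26.7% of the list, near the 24.3% of all genes, and those of knockouts 3-4 are 13.3%, beside 1.49%. Rhob, a small GTPase of actin and endosome traffic, had 11.49, 11.23, 11.61 and 11.75 in knockouts 1-2 and 11.36, 11.53, 11.56 and 11.50 in knockouts 3-4, against 12.38, 12.04, 12.07 and 12.23 in controls. No knockout array reached a control, and Rhob fell by 0.66 ± 0.12 (adjusted p = 0.00237) in knockouts 1-2 and by 0.69 ± 0.12 (adjusted p = 0.0184) in knockouts 3-4. Ilk, the integrin-linked kinase, fell by 0.38 ± 0.10 (adjusted p = 0.0127) in knockouts 1-2 and by 0.46 ± 0.10 (adjusted p = 0.0476) in knockouts 3-4. Zyx, the focal adhesion protein zyxin, was at 10.56, 10.83, 10.69 and 10.71 in knockouts 1-2 and 9.68, 9.82, 10.18 and 9.92 in knockouts 3-4, against 10.63, 10.60, 10.44 and 10.40 in controls. Only knockouts 3-4 were apart from control, with a fall of 0.62 ± 0.11 (adjusted p = 0.0227). In knockouts 1-2 the Zyx difference was 0.18 (adjusted p = 0.237). The other Zyx probe set, at 7.48 in controls, differed by -0.10 in knockouts 3-4 and overlapped control there. The calls for Ilk, Zyx, Sparc and Rhob in knockouts 3-4 did not pass when both ends were averaged first or when knockout 3 was left out.

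**Figure D1:**
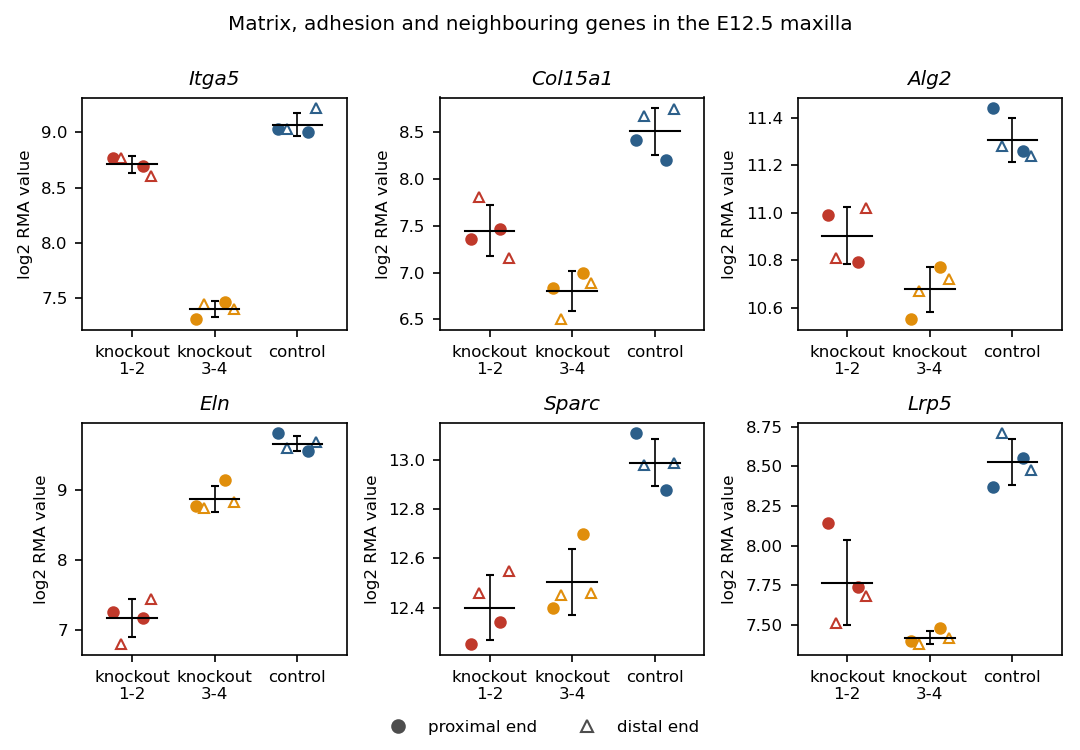
Log2 RMA level (y axis) of Itga5, Col15a1, Alg2, Eln, Sparc and Lrp5 on each maxilla array, with knockouts 1-2, knockouts 3-4 and controls from left to right (n = 4 arrays each), filled circles for the proximal and open triangles for the distal end, and bars for the mean and SD. Each of the 6 genes has all 8 knockout arrays below all 4 control arrays, with Itga5 lowest in knockouts 3-4 and Eln lowest in knockouts 1-2.

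The TGF-beta ligands and their binding proteins were mostly below control. Of 14 tested, 10 fell (71.4%, beside 24.3% of all genes) and 0 rose in knockouts 1-2 (median -0.73). In knockouts 3-4, 13 of 14 were below control (median -0.17) and 1 fell (7.14%, beside 1.49%). That one was Tgfb1, with 7.96, 8.12, 7.69 and 7.83 in knockouts 1-2 and 6.86, 7.59, 7.36 and 7.69 in knockouts 3-4, against 8.11, 8.06, 8.60 and 8.77 in controls. Knockouts 3-4 lay wholly below control and knockouts 1-2 overlapped it by 1 array. The difference was -1.01 ± 0.19 (adjusted p = 0.0270) in knockouts 3-4 and -0.49 ± 0.19 (adjusted p = 0.0679) in knockouts 1-2. The call in knockouts 3-4 did not pass with sex as a covariate or with the mean of all probe sets. Tgfb2 fell by 0.67 in knockouts 1-2 and had -0.01 in knockouts 3-4. The latent TGF-beta binding protein genes Ltbp1, Ltbp3 and Ltbp4 fell by 1.56, 0.78 and 0.80 in knockouts 1-2, and their values in knockouts 3-4 were -0.32, -0.53 and -0.26. Gdf10, a divergent family ligand also known as Bmp3b, fell by 3.69 in knockouts 1-2, with -0.93 (adjusted p = 0.133) in knockouts 3-4.

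Receptors and Smads did not pass in knockouts 3-4 (0 of 12 and 0 of 13). In knockouts 1-2, 4 receptors fell and 1 rose, and 6 Smad and corepressor genes fell and 1 rose. The calls were 41.7% of the receptors and 53.8% of the Smad list, beside 40.8% of all genes, so the pooled receptor share was near that of all genes. By direction, the falls were 33.3% and 46.2%, beside 24.3% of all genes, and the rises 8.33% and 7.69%, beside 16.5%. Tgfbr2, the partner of Alk5, fell by 1.29 in knockouts 1-2 and had 0.01 in knockouts 3-4. The activin type II receptor Acvr2b rose by 1.51 in knockouts 1-2, with -0.32 in knockouts 3-4. Smad2 fell by 0.85 in knockouts 1-2 while Smad3, the other signal carrier of Alk5, had -0.16 there, and in knockouts 3-4 they had 0.13 and -0.07. The inhibitory Smad7, a direct target of the pathway, had -0.52 in knockouts 1-2 and -0.08 in knockouts 3-4 and passed in neither set.

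Of 26 known TGF-beta target genes, 17 fell (65.4%, beside 24.3% of all genes) and 0 rose in knockouts 1-2 (median -0.67). In knockouts 3-4, 1, Itga5, fell (3.85%, beside 1.49%), with 18 of 26 below control (median -0.12). Ccn2, the connective tissue growth factor, fell by 1.75 in knockouts 1-2, and its -0.56 in knockouts 3-4 did not pass. Postn, a matricellular protein of fibrous tissue, fell by 1.92 in knockouts 1-2 with -0.14 in knockouts 3-4. The actin-binding gene Tpm1 fell by 2.32 in knockouts 1-2 with -0.11 in knockouts 3-4, and Tagln, which encodes transgelin, fell by 1.18 with 0.09 in knockouts 3-4. Pmepa1, which encodes a feedback inhibitor of Smad signalling, had -0.42 in knockouts 1-2 and -0.41 in knockouts 3-4, neither past the threshold.

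Cartilage genes were below control in both sets. All 26 tested (of 29 listed) were below control in knockouts 1-2, where 15 fell (median -1.21), and 22 of 26 were below in knockouts 3-4, where 1 fell (median -0.74). The same medians over all genes were -0.06 and -0.02. The falls were 57.7% of the list in knockouts 1-2 and 3.85% in knockouts 3-4, beside 24.3% and 1.49% of all genes. Over the alternative settings the list median ran from -1.82 to -0.72 in knockouts 1-2 and from -1.26 to -0.20 in knockouts 3-4. The mean level of the list was 9.28 and 9.75 on the arrays of control 1 and 8.59 and 8.44 on those of control 2. In knockouts 1-2 it ran from 7.51 to 7.65. In knockouts 3-4 it ran from 7.8 to 8.98, highest on the proximal array of knockout 4, above both arrays of control 2. Sox9, the transcription factor required for cartilage condensation, had 10.05, 9.65, 9.89 and 10.33 in knockouts 1-2 and 9.42, 9.90, 9.92 and 9.69 in knockouts 3-4, against 10.58, 11.59, 10.92 and 10.36 in controls. All 8 knockout arrays lay below the 4 controls, the nearest at 10.33 against 10.36. The difference was -0.88 ± 0.25 (adjusted p = 0.0172) in knockouts 1-2 and -1.13 ± 0.25 (adjusted p = 0.0520) in knockouts 3-4. Sox6, its partner in cartilage gene activation, was the member that passed in both sets. It had 8.93, 8.48, 8.88 and 8.72 in knockouts 1-2 and 9.80, 9.55, 9.48 and 9.61 in knockouts 3-4, against 10.33, 10.53, 10.37 and 10.25 in controls. The sets did not overlap, and Sox6 fell by 1.62 ± 0.11 (adjusted p = 3.60e-05) in knockouts 1-2, to 32.5% of control, and by 0.76 ± 0.11 (adjusted p = 0.00630) in knockouts 3-4, to 58.9%. These values are from its brightest probe set. The other Sox6 probe sets differed by -1.35, -1.23 and -1.35 in knockouts 1-2. In knockouts 3-4 they differed by -0.14, -0.40 and -0.32, and those with -0.14 and -0.32 overlapped control.

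Cartilage matrix genes varied much among the controls. Acan, the proteoglycan core protein aggrecan, had 5.59, 5.44, 5.75 and 5.84 in knockouts 1-2 and 6.38, 6.63, 7.63 and 6.66 in knockouts 3-4, against 8.67, 9.48, 7.20 and 7.31 in controls. Knockouts 1-2 lay apart from control, all under the log2 level of 6.07 that genes had to exceed on at least 2 of the 24 arrays to be tested. Where every array of a group lies under this level the difference is given as a bound against it, and by that measure Acan fell by at least 2.09 in knockouts 1-2, while in knockouts 3-4 the proximal array of knockout 4 overlapped control and the difference of -1.34 did not pass (adjusted p = 0.227). Cnmd, the cartilage glycoprotein chondromodulin, had 4.96, 4.96, 5.36 and 5.04 in knockouts 1-2 and 7.59, 8.28, 10.53 and 7.60 in knockouts 3-4, against 10.90, 11.58, 9.96 and 9.38 in controls. It fell by at least 4.38 (adjusted p = 3.56e-04) in knockouts 1-2, and the -1.96 of knockouts 3-4 did not pass, again with the proximal array of knockout 4 within the control range. The collagen genes Col9a3 and Col2a1 had -2.60, which passed, and -0.73, which did not, in knockouts 1-2, and -1.28 and -0.79 in knockouts 3-4, where neither passed. These are bulk tissue arrays, in which fewer cartilage-forming cells and less RNA per cell cannot be told apart.

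Tendon and small leucine-rich proteoglycan genes were low in knockouts 1-2. All 19 tested were below control there and 15 fell (median -2.28, or -2.06 with array values under 6.07 set to that level), whereas in knockouts 3-4, 13 of 19 were below and 0 passed (median -0.18). The falls of knockouts 1-2 were 78.9% of the list, beside 24.3% of all genes. Scx, the transcription factor of tendon progenitors, had 5.94, 5.56, 5.97 and 5.85 in knockouts 1-2 and 6.63, 6.39, 7.19 and 6.01 in knockouts 3-4, against 8.76, 8.95, 7.77 and 7.16 in controls. With knockouts 1-2 under the level of 6.07, it fell by at least 2.09 (adjusted p = 9.63e-04) there, and the difference of -1.61 ± 0.35 in knockouts 3-4, whose highest array reached the lowest control, just missed the threshold (adjusted p = 0.0505). Aspn, the proteoglycan asporin that binds TGF-beta, had 4.05, 4.19, 3.68 and 4.34 in knockouts 1-2 and 8.91, 8.96, 8.92 and 8.96 in knockouts 3-4, against 9.59, 9.10, 9.80 and 10.25 in controls. Knockouts 1-2 were again under the level of 6.07, which makes the fall at least 3.61 (adjusted p = 9.37e-07), and in knockouts 3-4 the -0.75 (adjusted p = 0.122) did not pass although the arrays did not overlap. Dcn, Lum and Kera, which encode decorin, lumican and keratocan, fell by 2.62, 2.50 and 2.54 in knockouts 1-2 and had 0.53, 0.00 and 0.75 in knockouts 3-4.

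**Figure D2:**
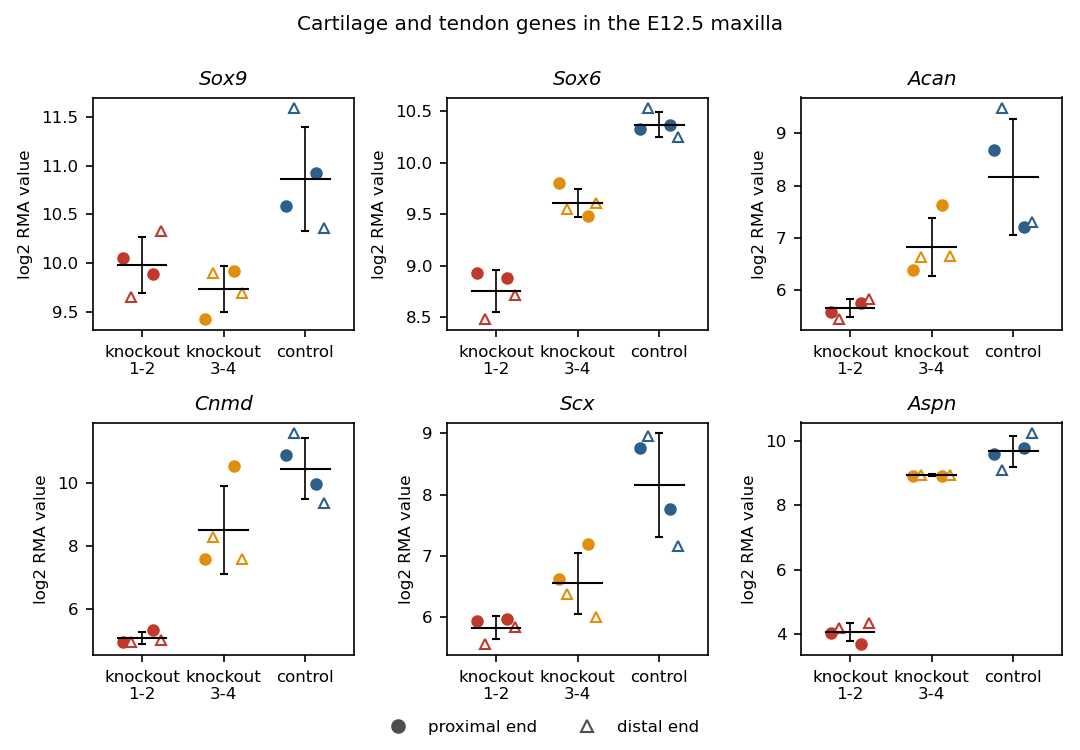
Log2 RMA level (y axis) of the cartilage genes Sox9, Sox6, Acan and Cnmd and of Scx and Aspn on each maxilla array, with knockouts 1-2, knockouts 3-4 and controls from left to right (n = 4 arrays each), filled circles proximal, open triangles distal, bars for the mean and SD. Sox9 and Sox6 have all knockout arrays below all controls, while for Acan, Cnmd and Scx the proximal array of knockout 4 reaches the control range, and Aspn lies under the filter level of 6.07 in knockouts 1-2 alone.

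Bone genes gave 6 falls and 2 rises of 15 in knockouts 1-2 and 0 calls in knockouts 3-4 (median -0.97 and -0.10). The calls of knockouts 1-2 were 53.3% of the list, beside 40.8% of all genes. The rises were 13.3%, beside 16.5% of all genes, and the 6 falls of 15 stand beside 24.3%. Over the alternative settings the bone median ran from -1.05 to -0.08 in knockouts 1-2 and from -0.43 to 0.30 in knockouts 3-4. In knockouts 3-4 it was above 0 without control 2. With array values under 6.07 set to that level it was -0.11 in knockouts 1-2. Omd, the bone proteoglycan osteomodulin, was under 6.07 on every array of knockouts 1-2 and fell by at least 1.32 there, with -0.37 in knockouts 3-4. The osteoblast genes Sp7 and Alpl had -1.24 and -1.01 in knockouts 1-2 and -0.06 and -0.08 in knockouts 3-4, none past the threshold.

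Of 37 palatal shelf genes, 12 fell and 1 rose in knockouts 1-2 (median -0.37), and 0 passed in knockouts 3-4 (20 below control, median -0.04, from -0.06 to 0.05 over the settings). The calls of knockouts 1-2 are 35.1% of the list and the falls 32.4%, beside 40.8% and 24.3% of all genes. Osr2, a zinc-finger factor of the shelf mesenchyme, had 7.79, 6.36, 8.29 and 6.77 in knockouts 1-2 and 10.48, 9.58, 10.11 and 9.88 in knockouts 3-4, against 10.45, 9.47, 10.49 and 10.54 in controls. Knockouts 1-2 lay wholly below the others and knockouts 3-4 lay among the controls. Osr2 fell by 2.93 (adjusted p = 1.80e-04) in knockouts 1-2, and the difference in knockouts 3-4 was -0.23 ± 0.27 (adjusted p = 0.754). Foxf2, a forkhead factor downstream of Hedgehog signalling, had 7.74, 6.32, 7.99 and 7.63 in knockouts 1-2 and 9.28, 9.13, 9.85 and 9.08 in knockouts 3-4, against 9.11, 10.06, 9.15 and 8.78 in controls, a fall of 1.86 in knockouts 1-2 and a difference of 0.06 in knockouts 3-4. Tgfb3, the ligand needed for fusion of the shelves, had 8.47, 8.54, 8.45 and 8.54 in knockouts 1-2 and 9.54, 9.31, 9.85 and 9.33 in knockouts 3-4, against 10.01, 9.96, 9.57 and 9.60 in controls. It fell by 1.28 (adjusted p = 2.69e-04) in knockouts 1-2, and knockouts 3-4 overlapped control with -0.28 (adjusted p = 0.387). Shox2, a homeobox factor of the anterior palate, had 9.75, 9.17, 10.49 and 9.77 in knockouts 1-2 and 12.26, 9.94, 11.44 and 10.90 in knockouts 3-4, against 11.61, 10.12, 11.22 and 11.38 in controls. It fell by 1.29 (adjusted p = 0.0149) in knockouts 1-2, with 1 array above the lowest control, and had 0.05 in knockouts 3-4. Osr1 and Meox2, further factors of shelf mesenchyme, fell by 2.12 and 2.22 in knockouts 1-2 and had 0.21 and -0.10 in knockouts 3-4. Jag2, a Notch ligand of oral epithelium, was the member that rose in knockouts 1-2, by 0.37.

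Msx1 and Lhx8 varied as much between control arrays as between genotypes. Msx1, a homeobox factor of the anterior palate and teeth, had 12.94, 13.11, 12.11 and 12.39 in knockouts 1-2 and 12.44, 12.78, 11.02 and 12.81 in knockouts 3-4, against 11.05, 9.12, 12.92 and 12.79 in controls, so that both ends of control 1 were low. Lhx8, a LIM factor of the maxillary mesenchyme, ran from 6.66 to 10.99 in knockouts 1-2 and from 9.84 to 11.98 in knockouts 3-4, against 8.29 to 10.99 in controls. Neither gene passed in either set. Among 29 maxillary and frontonasal transcription factors, 4 rose (Tfap2a, Six4, Irx3 and Irx5) and 0 fell in knockouts 1-2, and 0 passed in knockouts 3-4 (median 0.18 and 0.04, with the sign turned in 1 and 2 of the settings). The rises of knockouts 1-2 were 13.8% of the list, beside 16.5% of all genes, where 40.8% of all genes were called either way. Of 18 genes of mandibular identity, 7 fell and 1 rose in knockouts 1-2 and 0 passed in knockouts 3-4. The calls were 44.4% of this list and the falls 38.9%, beside 40.8% and 24.3% of all genes. Dlx5 and Dlx6, the homeobox genes of lower jaw identity, fell by 0.97 and 1.20 in knockouts 1-2, and had -0.23 and -1.10 in knockouts 3-4.

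**Figure D3:**
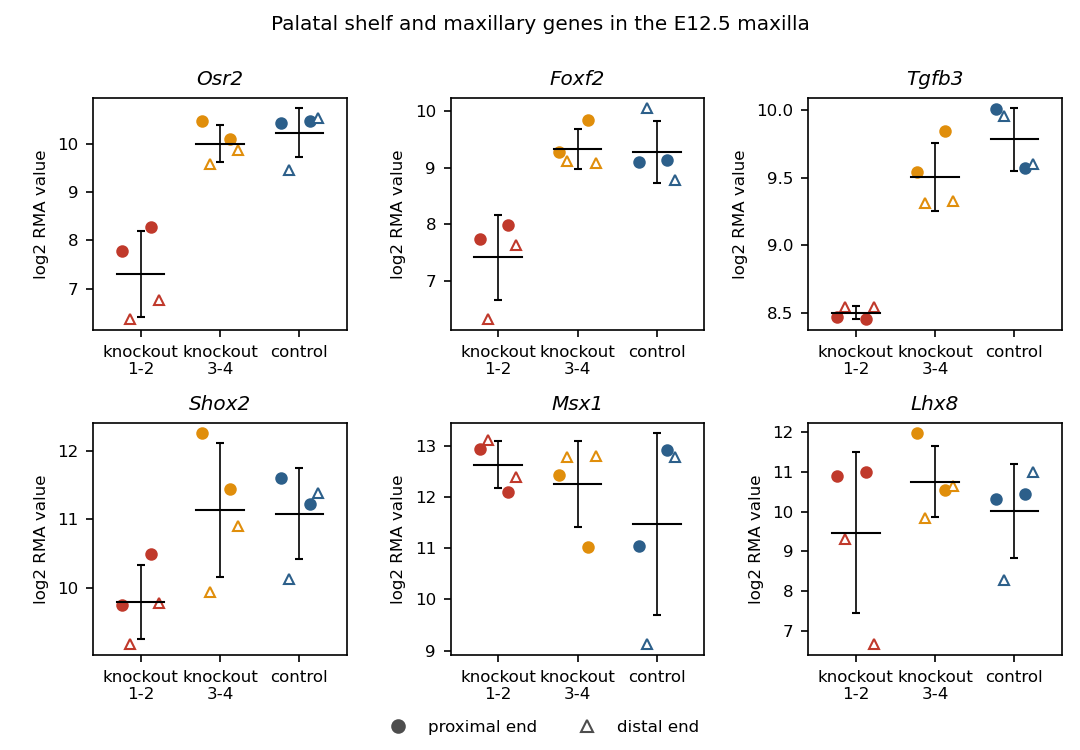
Log2 RMA level (y axis) of Osr2, Foxf2, Tgfb3, Shox2, Msx1 and Lhx8 on each maxilla array, with knockouts 1-2, knockouts 3-4 and controls from left to right (n = 4 arrays each), filled circles proximal, open triangles distal, bars for the mean and SD. Osr2, Foxf2 and Tgfb3 are low in knockouts 1-2, while knockouts 3-4 overlap control for all 6 genes and control 1 stands low for Msx1 and Lhx8 at the distal end.

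Of 102 genes of the BMP, FGF, WNT and Hedgehog pathways, which meet TGF-beta in the face, 1 passed in knockouts 3-4 (0.980%, beside 1.78% of all genes) and 43 in knockouts 1-2 (42.2%, beside 40.8%), so the share was near that of all genes. Of 24 BMP pathway genes, 12 fell and 0 rose in knockouts 1-2 (median -0.51), with 0 calls in knockouts 3-4 (median -0.07). Bmper and Nog, extracellular regulators of BMP ligands, fell by 2.62 and, as a bound, by at least 0.96 in knockouts 1-2 and had -0.62 and -0.53 in knockouts 3-4. The FGF list gave 11 falls and 2 rises of 25 in knockouts 1-2 and 1 fall in knockouts 3-4. That member, Spry4, a feedback inhibitor of receptor tyrosine kinases, had 8.21, 7.84, 7.82 and 7.61 in knockouts 1-2 and 7.58, 7.66, 7.63 and 7.67 in knockouts 3-4, against 8.55, 8.0, 8.75 and 8.49 in controls. Knockouts 3-4 lay below all controls and 1 array of knockouts 1-2 did not, with a fall of 0.57 (adjusted p = 0.00947) in knockouts 1-2 and of 0.81 ± 0.14 (adjusted p = 0.0186) in knockouts 3-4. Of 34 WNT genes, 10 fell and 1 rose in knockouts 1-2 and 0 passed in knockouts 3-4 (median -0.06 and 0.12, with the sign turned in 4 and 1 of the settings). The Hedgehog list gave 4 falls and 3 rises of 19 in knockouts 1-2 and 0 calls in knockouts 3-4, where the readout genes Gli1 and Ptch1 had 0.19 and 0.40.

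Outside the lists, the WNT co-receptor Lrp5 and the corepressor Tle1, picked after their values were seen, had all 8 knockout arrays below control. Lrp5 had 8.14, 7.51, 7.74 and 7.68 in knockouts 1-2 and 7.40, 7.38, 7.48 and 7.42 in knockouts 3-4, against 8.37, 8.71, 8.55 and 8.48 in controls, a fall of 0.76 (adjusted p = 0.00138) in knockouts 1-2 and of 1.11 (adjusted p = 0.00167) in knockouts 3-4. Tle1 was at 10.06, 10.17, 9.64 and 10.08 in knockouts 1-2 and 9.72, 10.30, 9.97 and 10.23 in knockouts 3-4, against 10.78, 11.02, 11.05 and 10.64 in controls, with a fall of 0.89 (adjusted p = 0.00132) in knockouts 1-2 and of 0.82 (adjusted p = 0.0186) in knockouts 3-4. A second Tle1 probe set, at 9.64 in controls, differed by -0.35 in knockouts 1-2 and -0.22 in knockouts 3-4, and overlapped control in both.

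**Figure D4:**
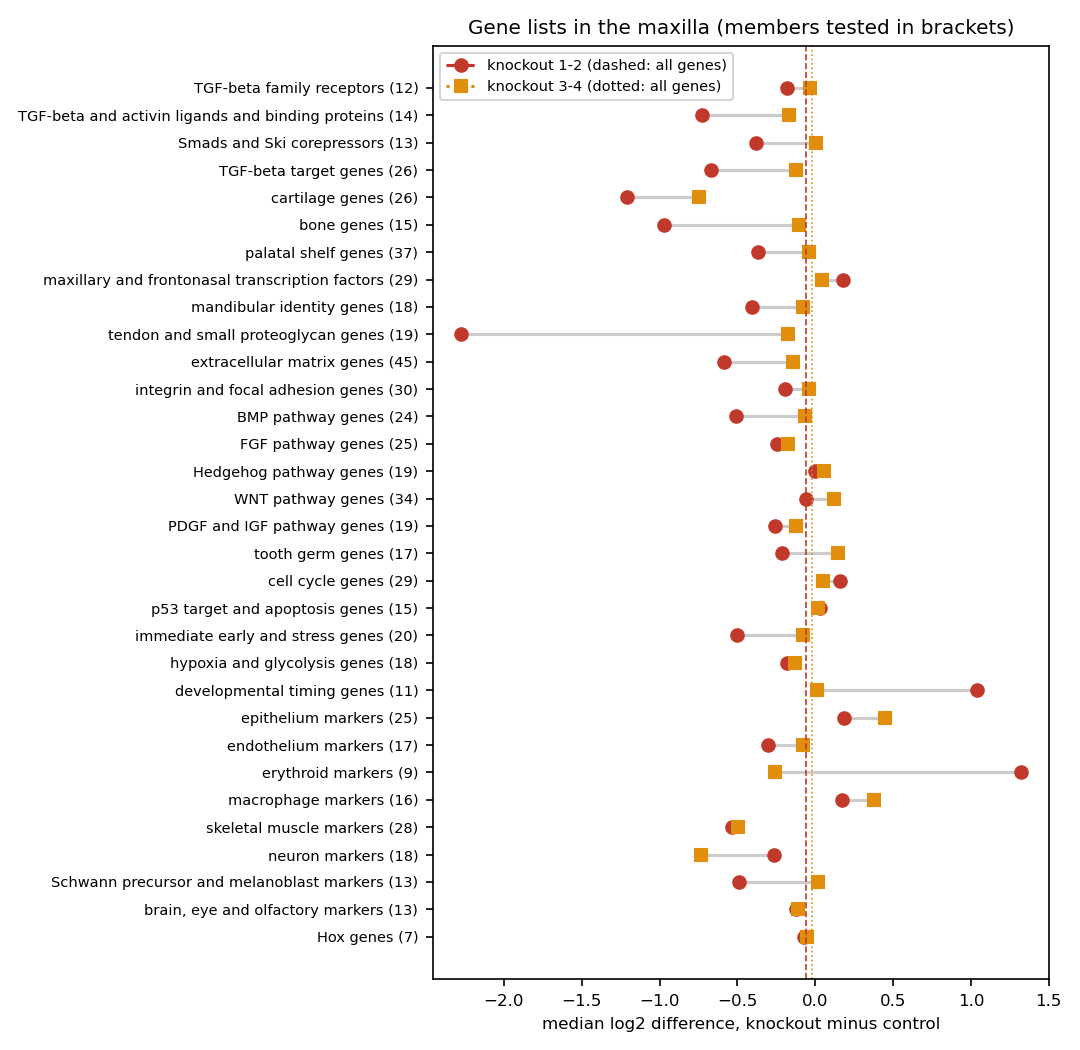
Median log2 difference from control (x axis) of the tested genes of each list (y axis), for knockouts 1-2 and knockouts 3-4, with the median of all 13837 genes as a line for each set. Tendon and small proteoglycan genes have -2.28 in knockouts 1-2 and -0.18 in knockouts 3-4, and cartilage genes have -1.21 and -0.74.

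In knockouts 3-4 the 12 largest falls that did not overlap control were those of Col15a1, Itga5, Scaf1, Plekhj1, Hbb-bh1, Maz, Raver1, Atn1, Zfp395, Caln1, Nynrin and Slc16a3. Maz, a zinc-finger transcription factor, fell by 1.51 in knockouts 3-4 and rose by 0.28 in knockouts 1-2. Scaf1, an SR-related factor linked to RNA polymerase II, fell by 1.63 in knockouts 3-4 with 0.16 in knockouts 1-2. Raver1, an RNA-binding partner of vinculin, fell by 1.46 in knockouts 3-4 and rose by 0.39 in knockouts 1-2. Caln1, a neuronal calcium-binding protein, was under 6.07 on every knockout array and fell by at least 0.94 in each set. The largest rises of knockouts 3-4 were Ccdc122 (at least 0.93, with controls under 6.07), Hba-a2 (1.54), H2-D1 (1.31), Hebp1 (1.26), H2-K1 (1.24) and Ms4a7 (1.20). In knockouts 1-2 the same genes had -0.05, -0.75, -0.58, 0.64, -0.42 and 0.37. Ccdc122 was under 6.07 on every control maxilla array and no higher on average in knockouts 1-2. Whether it passed the filter on low values only through knockouts 3-4 was not tested. If it did, it had to differ there, and its rise says little by itself.

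H2-K1 and H2-D1 encode the heavy chains of classical class I histocompatibility molecules, and the alleles of these genes differ between inbred strains. H2-K1 had 8.62, 8.49, 8.55 and 9.22 in knockouts 1-2 and 10.03, 10.48, 10.58 and 10.44 in knockouts 3-4, against 9.06, 9.31, 9.07 and 9.13 in controls, with a rise of 1.24 ± 0.16 (adjusted p = 0.00372) in knockouts 3-4. H2-D1 had 8.40, 8.40, 8.51 and 9.18 in knockouts 1-2 and 10.12, 10.52, 10.79 and 10.59 in knockouts 3-4, against 9.15, 9.39, 9.16 and 9.11 in controls. Knockouts 3-4 were above every other array for both genes. The values of H2-K1 and H2-D1 ran alike over the sets, and whether their probe sets tell the genes apart was not tested. A second H2-K1 probe set had 0.725 in knockouts 1-2, above all controls, and 1.46 in knockouts 3-4. The direction of H2-K1 in knockouts 1-2 therefore depends on the probe set. The H2-D1 probe sets ran from 0.05 to 1.41 in knockouts 3-4. Between these genes in the RefSeq order of chromosome 17, 3 of 63 tested genes passed in knockouts 3-4, namely the lower genes Ring1, Bag6 and Prrc2a, in a stretch chosen because the genes at its ends had passed. Ring1, a Polycomb subunit, fell by 0.57, Bag6, a chaperone cofactor, by 0.86 and Prrc2a, an RNA-binding protein, by 0.79, all 3 named after their values were seen. Strain background other than C57B6 is not in the labels, and its part in these values was not tested.

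Among the 12 largest rises of knockouts 1-2 were 4 genes of the list of early developmental timing (Igdcc3, Trim71, Lin28a and Dusp9) and 2 of the erythroid list (Slc4a1 and Rhag). Of 11 timing genes tested, 9 rose (81.8%, beside 16.5% of all genes) and 0 fell in knockouts 1-2 (median 1.04), against 0 of 11 in knockouts 3-4 (median 0.01). Lin28a, the RNA-binding protein that blocks let-7 maturation, had 8.16, 6.31, 7.90 and 7.95 in knockouts 1-2 and 4.42, 4.44, 5.44 and 4.69 in knockouts 3-4, against 4.84, 4.87, 4.53 and 4.50 in controls. All arrays of knockouts 1-2 lay above all others, which were under 6.07, so the rise is at least 1.51 (adjusted p = 3.99e-04). Lin28a passed the filter on low values only through knockouts 1-2, the one of the 9 rising timing genes that did, so it had to differ there. Igdcc3, an immunoglobulin-like surface protein and let-7 target, and Trim71, the let-7 target ubiquitin ligase, rose by 3.92 and 3.08 in knockouts 1-2 and had 0.90 and 0.36 in knockouts 3-4. Fgf8, the epithelial ligand of the facial prominences, and Sall4, a stem cell transcription factor, rose by 2.43 and 3.05 in knockouts 1-2. Cell cycle genes moved both ways in knockouts 1-2 (9 rose and 5 fell of 29, or 48.3% called beside 40.8% of all genes) and 0 passed in knockouts 3-4. The rises of knockouts 1-2 were 31.0% of the list, beside 16.5% of all genes, and the falls 17.2%, beside 24.3%. A test of knockouts 1-2 against knockouts 3-4, which hold the same genotype, called 6550 genes (47.3%, of which 2911 or 21.0% of all were higher and 3639 or 26.3% lower in knockouts 1-2). The 3' excess of 1.03 against 0.05 moved with this difference, and its part was not tested beyond the covariate given above. Whether embryos of the sets were of the same age within the labelled stage was not tested.

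The 9 erythroid markers tested lay above control in knockouts 1-2 and below it in knockouts 3-4, while the adult alpha globin gene Hba-a2, which is not on the list, did not follow them. All 9 erythroid genes tested rose in knockouts 1-2 (median 1.32), where 16.5% of all genes rose. In knockouts 3-4, 9 of 9 were below control (median -0.26), where 54.1% of all genes were. Of the 9, 1 passed, or 11.1% of the list, beside 1.49% of all genes lower there. The median of knockouts 3-4 was -0.09 with array values under 6.07 set to that level. Of the 9, Rhag passed the filter only through knockouts 1-2. Hba-a2 had 5.19, 4.71, 5.13 and 5.57 in knockouts 1-2 and 7.57, 7.39, 7.60 and 7.19 in knockouts 3-4, against 5.79, 5.73, 5.99 and 6.10 in controls, and rose by 1.54 (adjusted p = 0.00166) in knockouts 3-4, although 3 of 4 controls lay under 6.07. The mean log2 level of the list ran from 10.45 to 11.30 in knockouts 1-2 and from 9.0 to 9.33 in knockouts 3-4, against 9.37 to 9.63 in controls. Hbb-bh1, an embryonic beta-like globin, had 13.39, 13.72, 13.96 and 13.57 in knockouts 1-2 and 10.25, 10.52, 10.07 and 10.10 in knockouts 3-4, against 11.90, 11.59, 11.70 and 11.85 in controls. The 3 sets did not overlap, with a rise of 1.90 (adjusted p = 6.52e-05) in knockouts 1-2 and a fall of 1.52 (adjusted p = 6.19e-04) in knockouts 3-4.

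Macrophage markers had a median of 0.17 in knockouts 1-2 and 0.38 in knockouts 3-4, where 15 of 16 were above control and 1, Cd68, passed. That call was 6.25% of the list, beside 0.289% of all genes higher in knockouts 3-4. In knockouts 1-2, 2 markers fell (12.5%, beside 24.3% of all genes) and 1 rose (6.25%, beside 16.5%). Both falling markers were under 6.07 on every array of knockouts 1-2. The median of knockouts 1-2 ran from -0.13 to 0.79 over the settings and that of knockouts 3-4 from 0.30 to 0.61. Cd68, a lysosomal glycoprotein of macrophages, had 6.89, 6.88, 6.99 and 7.13 in knockouts 1-2 and 7.01, 7.48, 7.69 and 6.94 in knockouts 3-4, against 6.55, 6.05, 5.87 and 6.48 in controls. Every knockout array was above every control, and Cd68 rose by 0.74 (adjusted p = 0.0143) in knockouts 1-2 and by 1.05 (adjusted p = 0.0267) in knockouts 3-4. The defining macrophage genes Csf1r and Adgre1 had 0.75 and 0.27 in knockouts 1-2 and 0.70 and 0.65 in knockouts 3-4 and did not pass. The mean level of the list was 7.31 to 8.19 in knockouts 1-2 and 7.74 to 8.43 in knockouts 3-4, against 7.20 to 7.84 in controls.

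Of 17 endothelial markers, 9 fell in knockouts 1-2 (52.9%, beside 24.3% of all genes, list median -0.30). In knockouts 3-4, 1 fell, the transcription factor Erg (5.88%, beside 1.49%, list median -0.08). Erg had 6.88, 7.03, 7.07 and 7.60 in knockouts 1-2 and 9.0, 8.73, 8.96 and 8.61 in knockouts 3-4, against 9.54, 10.09, 9.49 and 9.74 in controls, with a fall of 2.57 (adjusted p = 3.60e-05) in knockouts 1-2 and of 0.89 (adjusted p = 0.0297) in knockouts 3-4. Erg is also expressed in developing cartilage. The surface markers Pecam1 and Cdh5 had -1.05, which passed, and -0.47 in knockouts 1-2, and 0.05 and 0.23 in knockouts 3-4. The mean level of the list was 8.32 to 8.90 in knockouts 1-2 and 8.89 to 9.46 in knockouts 3-4, against 9.02 to 9.27 in controls.

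Muscle, neuron and epithelial markers varied within the sets. Of 28 muscle markers 0 passed in either set, with 22 below control in knockouts 1-2 (median -0.53) and 26 below in knockouts 3-4 (median -0.50). Over the alternative settings the muscle median ran from -2.43 to 0.56 in knockouts 1-2 and from -2.19 to 0.67 in knockouts 3-4, above 0 in 3 and 2 of the settings. It was 0.56 and 0.67 without control 1 and -2.43 and -2.19 without control 2. Their mean level was 6.35 to 8.01 in knockouts 1-2 and 6.01 to 9.07 in knockouts 3-4, against 6.35 to 9.62 in controls, where the proximal array of control 1 was highest. Neuron markers had 0 calls of 18 in either set, with 12 below control in knockouts 1-2 and 18 in knockouts 3-4, and mean levels of 7.72 to 9.55 in knockouts 1-2 and 7.75 to 10.07 in knockouts 3-4, against 7.83 to 11.29 in controls. Epithelial markers were above control in 21 of 25 cases in knockouts 3-4 (median 0.45) with 0 calls, and 1 of 25, Dsc3, fell in knockouts 1-2 (median 0.18). The epithelial median ran from -0.34 to 0.65 in knockouts 1-2 and from -0.05 to 0.91 in knockouts 3-4 over the settings. Their mean level was 9.20 to 9.74 in knockouts 1-2 and 9.42 to 10.06 in knockouts 3-4, against 8.54 and 8.97 in the ends of control 1 and 9.87 and 9.81 in those of control 2. The cartilage, Msx1 and Acan values of control 1 therefore stand on arrays with more muscle and neuron and less epithelial signal than control 2, and the part of dissection in them was not tested.

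**Figure D5:**
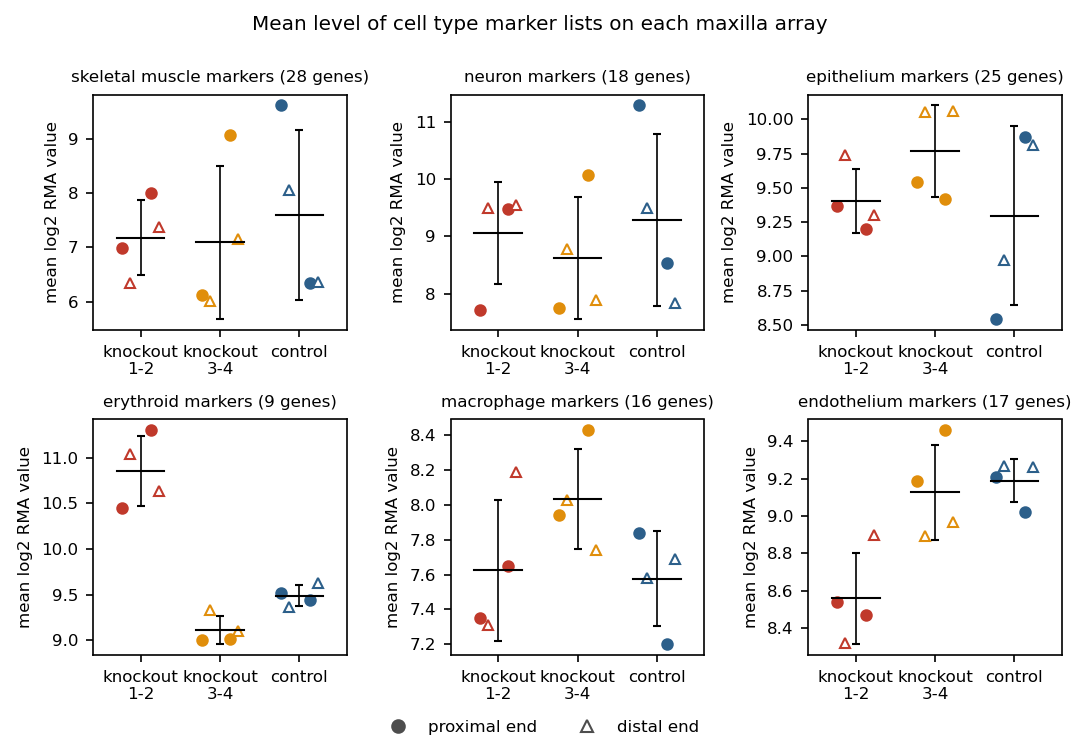
Mean log2 RMA level (y axis) of the muscle, neuron, epithelium, erythroid, macrophage and endothelium marker lists on each maxilla array, with knockouts 1-2, knockouts 3-4 and controls from left to right (n = 4 arrays each), filled circles proximal, open triangles distal, bars for the mean and SD. Erythroid levels are separate, from 10.45 to 11.30 in knockouts 1-2 and 9.0 to 9.33 in knockouts 3-4 against 9.37 to 9.63 in controls, while muscle and neuron levels spread over more than 2 log2 units among the controls.

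The ends were also compared by themselves, each with 4 knockout and 2 control arrays. limma called 0 genes at the proximal end (583 at an unadjusted p under 0.05) and 0 at the distal end (478). With knockouts 3-4 alone, 4 genes passed at the proximal end (Itga5, Maz, Palm and Scaf1, all lower) and 7 at the distal end, of which 6 were lower (Atn1, Col15a1, Itga5, Maz, Palm and Zfp395). Palm, a membrane-binding protein of neural tissue, was in neither list above and is named from these counts. The distal difference minus the proximal one passed for 0 genes (55 at an unadjusted p under 0.05, smallest adjusted p 1). The smallest p-values there belonged to Chrdl2, a chordin-like BMP antagonist, with 1.15 ± 0.29 (SE) and Gpr50, an orphan receptor related to melatonin receptors, with -2.32 ± 0.63, neither past the threshold.

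The mandible of the same design was used to see where the maxilla differs. The knockout difference of the maxilla minus that of the mandible passed for 0 genes with knockouts 3-4 (198 at an unadjusted p under 0.05) and for 0 with all knockouts (116). The smallest p-values in knockouts 3-4 were those of Tnfrsf11b, the osteoclast inhibitor osteoprotegerin, with 1.48 ± 0.40 (SE), the ligand gene Bmp2 with 0.94 ± 0.27 and the lymphotoxin gene Ltb with -0.95 ± 0.27, all with an adjusted p of 1.00. Itga5 had -0.44 in mandible knockouts 1-2 and -1.92 in mandible knockouts 3-4, beside -0.36 and -1.66 in the maxilla. Eln had -2.61 and -0.73 in the mandible sets, beside -2.50 and -0.79 in the maxilla. Sox9 passed in both mandible sets, with -1.22 and -1.17. The cartilage list had medians of -1.19 and -0.89 in mandible knockouts 1-2 and 3-4, beside -1.21 and -0.74 in the maxilla, and the tendon list -2.27 and -0.28, beside -2.28 and -0.18. More genes passed in the mandible at the same number of arrays, with 43 higher and 133 lower for all knockouts (1.27% of the genes tested), 532 higher and 1096 lower for knockouts 3-4 (11.8%) and 3621 higher and 5055 lower for knockouts 1-2 (62.7%), but those counts come from the separate spread of the mandible arrays.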

How the data were processed

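The series holds 24 Affymetrix Mouse430_2 arrays of dissected jaw ends, and the 12 arrays of the maxilla were compared here. The deposited table gives 1 log2 value for each probe set and array. The authors used RMA, a method of background correction, quantile normalization and probe set summary, per the submitters' processing notes, and its version is not given in the sources used here. Of 45101 probe sets, the 64 control features served only to describe the arrays. Symbols came from the platform annotation, and 34741 probe sets matched the RefSeq table (GRCm38.p6). The probe set with the highest mean stood for each of 18193 genes, and 13837 genes lay above the 40th percentile (log2 of 6.07) on at least 2 of 24 arrays.

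Linear models were fitted in R 4.3.3 with limma 3.58.1 (lmFit, then eBayes with no trend). P-values are 2-sided, were adjusted over these genes by Benjamini-Hochberg, and were called under 0.05. All knockouts against control were fitted with end as a covariate, and knockouts 1-2 and 3-4 as contrasts of 1 fit with 3 array sets and end. Ends were tested as group means, and the jaws as an interaction in a fit of all 24 arrays. The fit was tested on simulated data. Precision is limited by how few arrays a group holds. The members and lists were chosen with earlier results of these data known. Genes named were the 12 largest rises and falls without overlap of arrays in each comparison, list members, the smallest p-values of the interactions, and others said to be chosen after their values were seen. Promoter windows of 250 bases came from RefSeq. The alternatives, given in the closing section, changed the filter, the probe set rule, the centring, the covariates, the block, the arrays fitted and the replicates.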

Additional observations from a re-analysis of the deposited data

Results flagged for a closer look

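In groups of 4 arrays, an array was set aside for a closer look when its gap to the nearest other array, divided by the range of the group, passed Dixon's critical value. This was done for 30 genes in 3 sets, 90 groups, and 5 passed, where chance gives about 1 in 20. Itga5 was at 9.22 on the distal array of control 2, against 9.0 to 9.03 on the other controls (ratio 0.862). Osr2 was at 9.47 on the distal array of control 1, against 10.45 to 10.54 on the others (0.919), which is the array that brings the control range down to that of knockouts 3-4. Lin28a was at 6.31 on the distal array of knockout 1, against 7.90 to 8.16 in the rest of knockouts 1-2 (0.860), still above every array of knockouts 3-4 and control. H2-D1 was at 9.18 on the distal array of knockout 2, against 8.40 to 8.51 in the rest of knockouts 1-2 (0.865), and at 9.39 on the distal array of control 1, against 9.11 to 9.16 on the other controls (0.833).

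Knockouts 1-2 and knockouts 3-4, which carry the same labelled genotype and tissue, differed for 6550 genes by the contrast of the sets. Probe sets with no symbol or with several, 4874 past the filter, were not part of the gene comparisons. Of these, 1 passed with all knockouts, 25 in knockouts 3-4 and 2898 in knockouts 1-2, of which 2422 were higher and 476 lower than control, a split unlike that of the named genes.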

How the results depend on the processing

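Against 0 calls, all knockouts against control gave 3 genes with the mean of all probe sets, 136 with RNA quality as a covariate and 2 with sex as a covariate. The replicate block gave 5099 there, because only numbers 1 and 2 occur in both genotypes and the fit then rests on knockouts 1-2. Same-numbered arrays of the genotypes had deviations correlated between -0.50 and 0.16. Knockout deviations were taken from a mean over both array sets and so carry the difference between the sets. These correlations therefore cannot show whether the numbers pair the arrays. Knockouts 3-4 gave 11 genes with ends averaged, 413 with RNA quality, 144 with sex as a covariate and 46 to 413 in the fits without 1 replicate, against 246. Knockouts 1-2 gave 12 with RNA quality and 3854 to 5050 in the fits without 1 replicate, against 5645. Single ends, with 0 calls, gave 4 proximal and 7 distal genes with knockouts 3-4 only, 84 and 39 with knockouts 1-2 only (an alternative added after the data were seen), and 0 to 3 distal genes in the fits without 1 replicate. In knockouts 1-2 the sign turned with the mean of probe sets for Itga5 (0.27) and Col4a1 (-0.13), and with RNA quality for Col4a1 (-0.006), H2-D1 (0.08), Nynrin (0.12), Sec61b (0.12) and Smad2 (0.20); the cause was not tested. Of the 85 genes named here that passed in knockouts 1-2, 7 did so with RNA quality, and of the 36 of knockouts 3-4, 36 did. With the mean of all probe sets, 28 of 35 named genes of knockouts 3-4 passed and 7 kept their sign without passing. Setting array values under 6.07 to that level, also added after the data were seen, moved the bone median of knockouts 1-2 to -0.11 and the erythroid median of knockouts 3-4 to -0.09. Genotype is confounded with array set in each side-by-side comparison, and 4 arrays a group limit what can be called.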
